A study of Macaca fascicularis with 23 samples.

Results

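Livers of cynomolgus monkeys (Macaca fascicularis) that had received 30 mg/kg/day of ciprofibrate for 15 days were compared with livers of monkeys that had received 3 mg/kg/day for the same time. All arrays labelled with these doses and this time were taken, 4 at 30 mg/kg/day and 4 at 3 mg/kg/day, which made 8 of the 23 arrays of the study, and no vehicle array entered the comparison. Each array carried RNA from the right lateral liver lobe of a different animal, so n counts animals. The other 15 arrays came from animals given vehicle or 400 mg/kg/day for 4 days, and vehicle, 150 or 400 mg/kg/day for 15 days. Both groups compared here were treated, so the comparison is a step between 2 doses and not the effect of either dose. The age, sex and genotype of the animals, the vehicle and the route are not given in the sources used here.

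Ciprofibrate is a fibrate, a class of lipid-lowering drugs that bind and activate the nuclear receptor PPAR-alpha. The receptor pairs with RXR on DNA and in liver turns on genes that take up fatty acids, carry them into mitochondria and peroxisomes and oxidise them there. In rodents such drugs also enlarge the liver and multiply its peroxisomes, and primates are known to respond more weakly.

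RNA was read on an array whose probe sets were designed for human transcripts, so levels are compared between animals for 1 probe set at a time and never between genes. Values are probe set intensities. Differences are in log2(intensity + 16), positive where 30 mg/kg/day was higher, with the standard error (SE) and 95% interval from limma, and a probe set was called at a Benjamini-Hochberg adjusted p under 0.05 over all 12558 probe sets tested. This scale understates the change of dim probe sets.

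The 8 arrays were scaled alike, with trimmed means from 150.065 to 150.08 and medians from 57.2 to 71.6. Replicate 4 at 30 mg/kg/day stood apart, since its mean correlation with the other 3 animals of its group was 0.866, against 0.890 to 0.899 for the other 7 arrays. It held the lowest or highest value of the 8 in 16.5% of cases, where an even share is 12.5% and the other arrays took 10.1% to 13.9%. The 5′ to 3′ signal ratio of ACTB, a sign of RNA quality, was 0.763 ± 0.182 (SD, n = 4) at 3 and 0.608 ± 0.082 (n = 4) at 30 mg/kg/day (exact permutation test, two-sided p = 0.2, adjusted 0.286). That of GAPDH was 1.32 ± 0.19 and 1.10 ± 0.31 (exact p = 0.286, adjusted 0.286), and 0.0286 is the smallest p that 4 against 4 animals allow. The part of RNA quality in the differences below was not tested. All 12 hepatocyte markers were measured with a group mean of at least 100, and their summed intensity ran from 124095 to 161581 at 3 and from 117800 to 149526 at 30 mg/kg/day, so the tissue carried the markers of its label.

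No probe set was called between 30 and 3 mg/kg/day (0 of 12558, 0%). The smallest adjusted p was 0.0544, for a probe set of the transcription factor NFIX. An unadjusted p under 0.05 was reached by 635 probe sets (5.06%), where 628 would fall there if no probe set differed. Of these, 337 were higher (2.68%) and 298 lower (2.37%) at 30 mg/kg/day. In 369 probe sets (2.94%) the 4 animals of one dose all lay on one side of the 4 of the other. Of these, 202 were higher (1.61%) and 167 lower (1.33%) at 30 mg/kg/day, where 1.43% would separate in each direction if no probe set differed. Without replicate 4 at 30 mg/kg/day the count of calls was again 0, with 733 probe sets (5.84%) at an unadjusted p under 0.05 and a smallest adjusted p of 0.240.

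**Figure D1:**
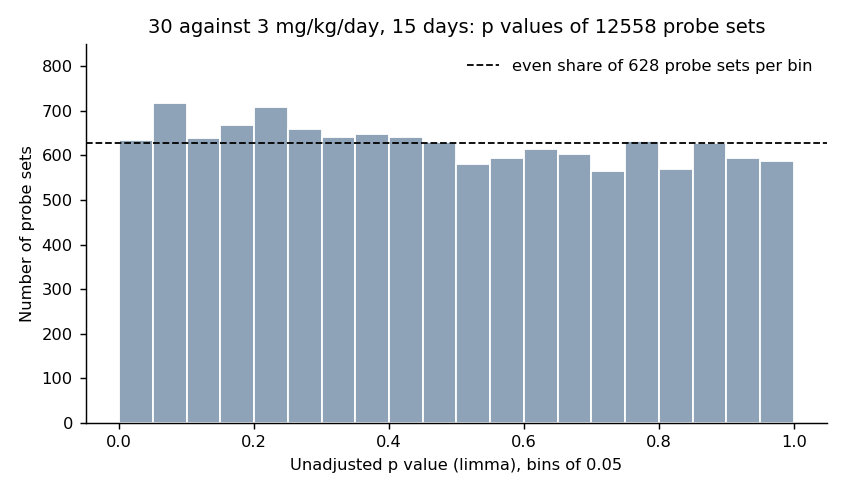
Histogram of the 12558 unadjusted limma p-values for 30 against 3 mg/kg/day, in bins of 0.05, with the number of probe sets on the vertical axis and the even share of 628 per bin as a dashed line. The first bin, which would stand high if many probe sets differed, holds 635.

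The absence of calls does not show that the doses acted alike, and the intervals say how large a difference could have been missed. The median size of the log2 difference over all probe sets was 0.24 and its 95th percentile 0.83, while the median SE was 0.36. The 95% interval lay within 2-fold either way for 5747 probe sets (45.8%) and within 4-fold for 12277 (97.8%). On the log2 scale used here a change of over 4-fold is therefore outside the interval for nearly all of the array. For many probe sets a 2-fold change is inside it. These limits do not bound the change of the intensity itself for dim probe sets, which this scale understates. Animals of one dose varied as much at 30 as at 3 mg/kg/day, with a median SD of 0.44 on the log2 scale in both groups. Without replicate 4 at 30 mg/kg/day the median SD of that group was 0.36.

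NFIX, a transcription factor of the nuclear factor I family, came nearest to a call. Its intensity was 603.8, 773.3, 885.2 and 1069.2 in replicates 1 to 4 at 3 mg/kg/day, and 319.3, 244.1, 266.2 and 274.2 at 30 mg/kg/day. The groups were far apart, and the 4 animals at the higher dose lay close together. The difference was -1.52 ± 0.20 (95% interval -1.95 to -1.08, limma adjusted p = 0.0544). It was called without replicate 1 at 3 mg/kg/day (adjusted p = 0.0328), but not without replicate 4 at 30 mg/kg/day (adjusted p = 0.240). When the spread was taken from all arrays of the study, the SE was 0.37 and NFIX was not called (adjusted p = 0.393). Vehicle animals had a mean of 1319 ± 544 (SD, n = 3), and the means at 150 and 400 mg/kg/day were 935 ± 166 and 682 ± 427 (n = 4 each), so the group at 30 mg/kg/day was the lowest of the 5 at 15 days. NFIX has other probe sets on the array, which differed by -0.74 and -0.18.

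KLF11, a Krüppel-like zinc finger transcription factor, was not among the genes the naming rule gave and is described because of its values. Its intensity was 159.1, 127.9, 186.1 and 206.9 at 3 mg/kg/day and 24.4, 42.3, 32 and 58.7 at 30 mg/kg/day, with no overlap. The difference was -1.77 ± 0.32 (adjusted p = 0.356), and it was called when the spread was taken from all 23 arrays (adjusted p = 0.0440). These are not the values of the probe set that represents KLF11 by the rule of the highest mean. That probe set differed by -0.23 ± 0.29, with overlapping groups.

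Besides NFIX, other genes of mixed kinds were lower at 30 mg/kg/day. They were among the 12 lower genes with the smallest p, no overlap and a group mean of at least 100. BAZ2A, a subunit of the nucleolar complex that silences ribosomal DNA, read 135.5, 179.3, 270.8 and 204.3 at 3 mg/kg/day and 65.7, 73, 53.4 and 73.1 at 30 mg/kg/day, a difference of -1.34 ± 0.28. TOPORS, a ubiquitin and SUMO ligase, read 353.7, 336.5, 236 and 307.9 against 126.8, 179.8, 187.4 and 154.8, a difference of -0.86 ± 0.22. DAXX, a chaperone of histone H3.3, read 291.6, 293.4, 276.9 and 350.6 against 146.1, 47.2, 38.1 and 246.7. DAXX was tight at the lower dose and spread over a wide range at the higher, and its difference was -1.53 ± 0.43. The zinc finger protein gene ZNF593 and CD2BP2, whose product binds CD2 and a spliceosome protein, differed by -1.37 ± 0.39 and -1.03 ± 0.35. Adjusted p was 0.642 for BAZ2A and 0.925 for the other 4. Another probe set of DAXX differed by -0.23 ± 0.29, with overlapping groups.

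The rest of these 12 genes act in translation, protein turnover and mitochondria. MRPL49, a protein of the mitochondrial ribosome, read 219.7, 139, 139 and 137.2 at 3 mg/kg/day and 41.9, 60.7, 29.3 and 11.2 at 30 mg/kg/day, a difference of -1.83 ± 0.38 (adjusted p = 0.642). The gap was widest in replicate 4 at 30 mg/kg/day, and without that animal the difference was -1.55. EIF4B, a translation initiation factor, read 1329.4, 1073.6, 1006.7 and 1085.5 against 616.7, 758.6, 924 and 567.3, a difference of -0.65 ± 0.18. COPS8, a subunit of the COP9 signalosome, differed by -1.31 ± 0.36. ATP5F1D, the delta subunit of ATP synthase, read 1059.7, 673.3, 574.6 and 810 against 483.3, 395.9, 501.7 and 470.6, a difference of -0.70 ± 0.20. NME4, a mitochondrial nucleoside diphosphate kinase, and AMT, the aminomethyltransferase of glycine cleavage, differed by -0.84 ± 0.25 and -0.60 ± 0.19. Apart from MRPL49, adjusted p was 0.925 for each of them. Another probe set of ATP5F1D differed by -0.14 ± 0.24, with overlapping groups.

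The 12 genes higher at 30 mg/kg/day by the same rule were of mixed kinds, and none was called. NENF, which encodes the secreted protein neudesin, read 67.3, 43.6, 50.8 and 42.2 at 3 mg/kg/day and 148.2, 214.7, 163.5 and 194.4 at 30 mg/kg/day. The animals at the higher dose were all well above those at the lower, and the difference was 1.55 ± 0.28 (adjusted p = 0.356). ASIC3, an acid-sensing ion channel, read 116.3, 117.6, 60.9 and 47.7 against 193.1, 367.8, 251 and 210.2, a difference of 1.45 ± 0.32 (adjusted p = 0.643). S100A1, a calcium-binding protein, was near the floor of the array in all 4 animals at 3 mg/kg/day, at 4.9 to 17.3, and read 144.3, 114.1, 32.5 and 111.7 at 30 mg/kg/day. Its difference was 1.91 ± 0.44 (adjusted p = 0.714). The other probe set of NENF differed the other way, by -0.34 ± 0.48.

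ELOVL5, which lengthens polyunsaturated fatty acids, was the member of a lipid pathway among these genes. It read 91.8, 127.1, 149.3 and 86.5 at 3 mg/kg/day and 194.9, 175.2, 297.4 and 212.7 at 30 mg/kg/day, a difference of 0.87 ± 0.26. Membrane and transport genes were the apelin receptor APLNR (1.67 ± 0.42), the glutamine transporter SLC1A5 (1.28 ± 0.40), the proteoglycan AGRN (1.20 ± 0.37), the rod transducin subunit GNAT1 (1.10 ± 0.27) and the endoplasmic reticulum protein TMCC1 (0.73 ± 0.24). The DNA helicase RECQL5 differed by 1.31 ± 0.40, RFPL1 by 1.15 ± 0.37 and TBC1D2B, which has a Rab GTPase-activating domain, by 1.07 ± 0.32. Adjusted p was 0.925 for these 9 genes. The other probe sets of GNAT1 differed by 0.68 ± 0.45 and -0.13 ± 0.50, and that of ELOVL5 by -0.02 ± 0.37.

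**Figure D2:**
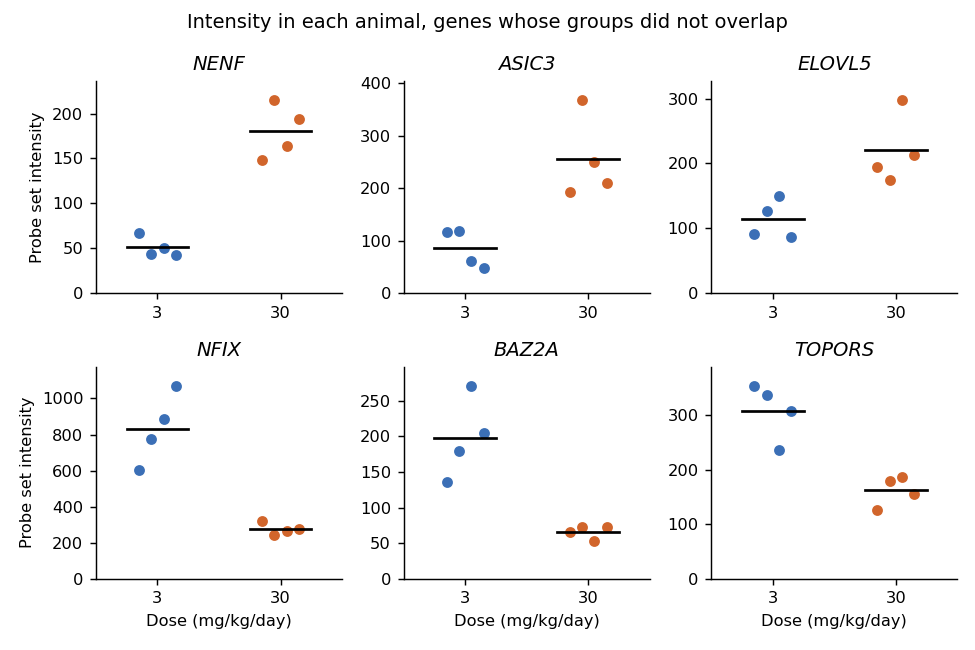
Probe set intensity (vertical axes, linear, starting at 0) of each animal at 3 and 30 mg/kg/day (horizontal axes) for 6 of the genes whose groups did not overlap, 3 higher and 3 lower at 30 mg/kg/day. Points are single animals in replicate order and black lines group means, and the means of NFIX are 833 at 3 and 276 at 30 mg/kg/day while those of NENF are 51 and 180.

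These genes were also set beside the other 15-day groups. All 12 genes higher at 30 mg/kg/day had a mean at 3 mg/kg/day below the vehicle, 150 and 400 mg/kg/day means, and in 7 of them the mean at 30 mg/kg/day was also above all of these. Of the 12 lower genes, 4 stood out from the other groups only at 3 mg/kg/day, 2 only at 30 mg/kg/day (NFIX and ATP5F1D) and 6 at both. NENF shows the pattern, with means of 151 in vehicle, 51 at 3, 180 at 30, 122 at 150 and 151 at 400 mg/kg/day. These genes were chosen for the gap between the 2 doses, so this is a description with no test.

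For the receptor and its targets the question was whether the higher of the 2 doses gave a larger response. PPARA, the gene of the receptor itself, read 692.9, 911.2, 894.1 and 1037.2 at 3 mg/kg/day and 461, 693, 373.9 and 594.4 at 30 mg/kg/day. Replicate 2 at the higher dose was level with replicate 1 at the lower and the others were apart, and the difference was -0.74 ± 0.21 (95% interval -1.20 to -0.28, adjusted p = 0.925). Its means were 618 ± 72 in vehicle animals (SD, n = 3), 857 ± 122 at 150 and 461 ± 50 at 400 mg/kg/day (n = 4 each), so PPARA did not follow the order of the doses.

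Of 22 listed PPAR-alpha targets 15 were measured. None was called and none separated the groups, where 2.81% of all 8226 genes did. Of the 15, 10 were higher and 5 lower at 30 mg/kg/day, with a median of 0.07 against 0.02 over all genes. FADS2 and HADHB had an unadjusted p under 0.05, both higher, where 2.72% of all genes did. Without replicate 4 at 30 mg/kg/day the median was 0.19, against 0.00 over all genes.

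FADS2, the delta-6 desaturase of polyunsaturated fatty acids, had the largest difference of any gene on the array in either direction. It read 14, 13.7, 25.8 and 11.9 at 3 mg/kg/day and 52.3, 11.4, 404.3 and 345.2 at 30 mg/kg/day. Replicates 3 and 4 at the higher dose were far above all others, replicate 1 was above the lower dose by less, and replicate 2 lay below all 4 animals at 3 mg/kg/day. The difference was 2.02 ± 0.74 (adjusted p = 0.925), which is 4.07-fold in intensity + 16, with an interval from 1.34 to 12.3. The values at 3 mg/kg/day are near the added 16, so this understates the change of the intensity itself. Mean intensity was 16.4 at 3 and 203 at 30 mg/kg/day. FADS2 means were 37 ± 14.5 in vehicle animals (n = 3), 555 ± 25 at 150 and 972 ± 218 at 400 mg/kg/day.

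FABP1, the liver fatty acid binding protein, had the same uneven pattern on a higher base. It read 3414.1, 1329.5, 362.5 and 929.9 at 3 mg/kg/day and 1590.1, 1083.2, 3587.6 and 3514.4 at 30 mg/kg/day. Replicate 1 at the lower dose was as high as replicates 3 and 4 at the higher, and the difference was 0.94 ± 0.55 (interval -0.26 to 2.14, adjusted p = 0.927). At 150 and 400 mg/kg/day FABP1 averaged 6006 ± 2766 and 11117 ± 2047, above the means of 1509 and 2444 at the 2 lower doses.

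**Figure D3:**
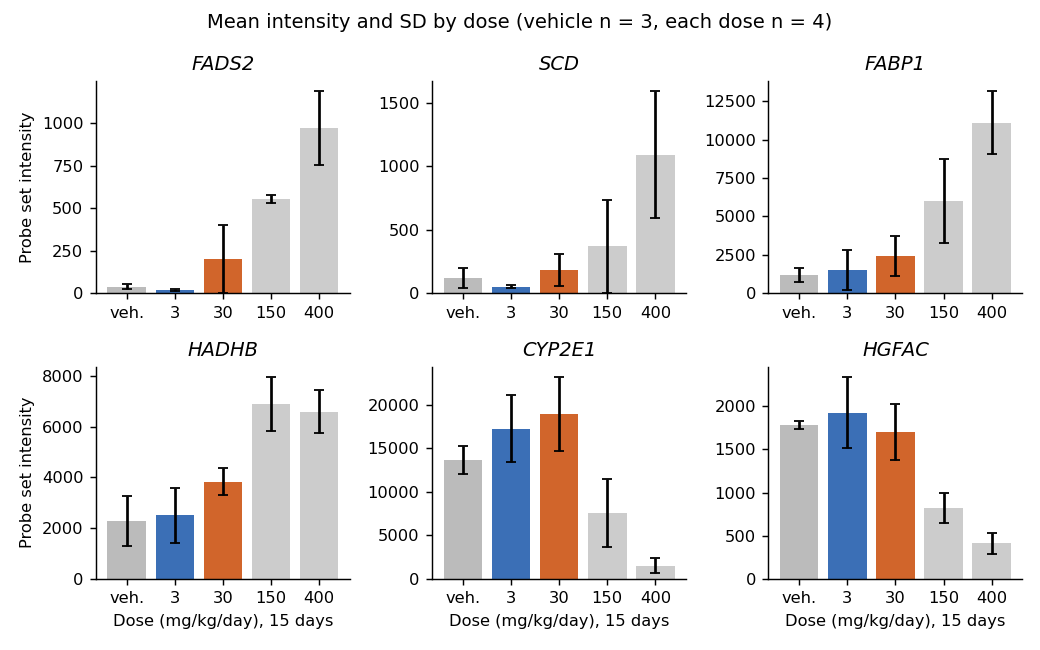
Mean probe set intensity with SD bars (vertical axes, linear) in vehicle animals (n = 3) and at 3, 30, 150 and 400 mg/kg/day (n = 4 each) after 15 days for 6 genes. FADS2 averages 16.4 at 3 and 203 at 30 mg/kg/day with an SD of 200 at 30, and CYP2E1 and HGFAC, which fell at 400 mg/kg/day, average 17277 and 18930, and 1929 and 1700, at 3 and 30 mg/kg/day.

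The remaining targets had smaller differences in both directions. VNN1, which makes pantothenic acid from pantetheine, differed by 0.54 ± 0.34, and PLIN2, a coat protein of lipid droplets, by -0.43 ± 0.30. The peroxisomal enzymes ACAA1 and EHHADH differed by -0.22 ± 0.20 and 0.35 ± 0.35. PDK4, the kinase that restrains pyruvate dehydrogenase, differed by 0.18 ± 0.34 and TXNIP, an inhibitor of thioredoxin, by -0.18 ± 0.30. For the acyl-CoA synthetase ACSL1 the interval, from -0.52 to 0.65, excluded a 2-fold change either way.

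Of 19 listed genes of mitochondrial fatty acid oxidation 18 were measured, 12 higher and 6 lower at 30 mg/kg/day, with a median of 0.17 and 0 called or separated. Over all genes 52% were higher, the median was 0.02 and 2.81% separated the groups. HADHB, the beta subunit of the trifunctional protein that completes the oxidation of long chains, read 3821.2, 2993.7, 1594.8 and 1652.7 at 3 mg/kg/day and 3804.2, 4247.3, 4226 and 3076.9 at 30 mg/kg/day. The higher dose was high in all 4 animals, while replicates 1 and 2 at the lower dose reached into its range or near it, and the difference was 0.70 ± 0.26 (adjusted p = 0.925). ETFA, a subunit of the flavoprotein that takes electrons from acyl-CoA dehydrogenases, read 1756.4, 1291.7, 1445.6 and 1321.3 against 1843.4, 2238.8, 2082.2 and 1500.5, a difference of 0.39 ± 0.17 (adjusted p = 0.925). These 2 members had an unadjusted p under 0.05, where 2.72% of all genes did in this direction.

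Partners of these proteins differed by less or the other way. HADHA, the alpha subunit of the same trifunctional protein, differed by 0.01 ± 0.22 (interval -0.47 to 0.49), and ETFB, the other flavoprotein subunit, by -0.37 ± 0.24. Along the entry route the carnitine transporter SLC22A5 differed by -0.43 ± 0.29, the carnitine palmitoyltransferase CPT1A by -0.08 ± 0.33 and the carnitine-acylcarnitine carrier SLC25A20 by 0.15 ± 0.28. Among the acyl-CoA dehydrogenases the short-chain ACADS differed by 0.30 ± 0.21, ACADSB by 0.21 ± 0.24, ACADVL by 0.04 ± 0.18, the medium-chain ACADM by -0.04 ± 0.22 and ACADL by -0.13 ± 0.36. ACAA2 and ECHS1, which act later in the cycle, differed by 0.32 ± 0.19 and 0.40 ± 0.24, and HADH, DECR1 and ECI1 by 0.20 to 0.24. ETFDH, which passes the electrons on to ubiquinone, differed by -0.10 ± 0.24. For 16 of the 18 genes the interval lay within 2-fold either way, so larger changes on this scale are outside what these animals allow.

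**Figure D4:**
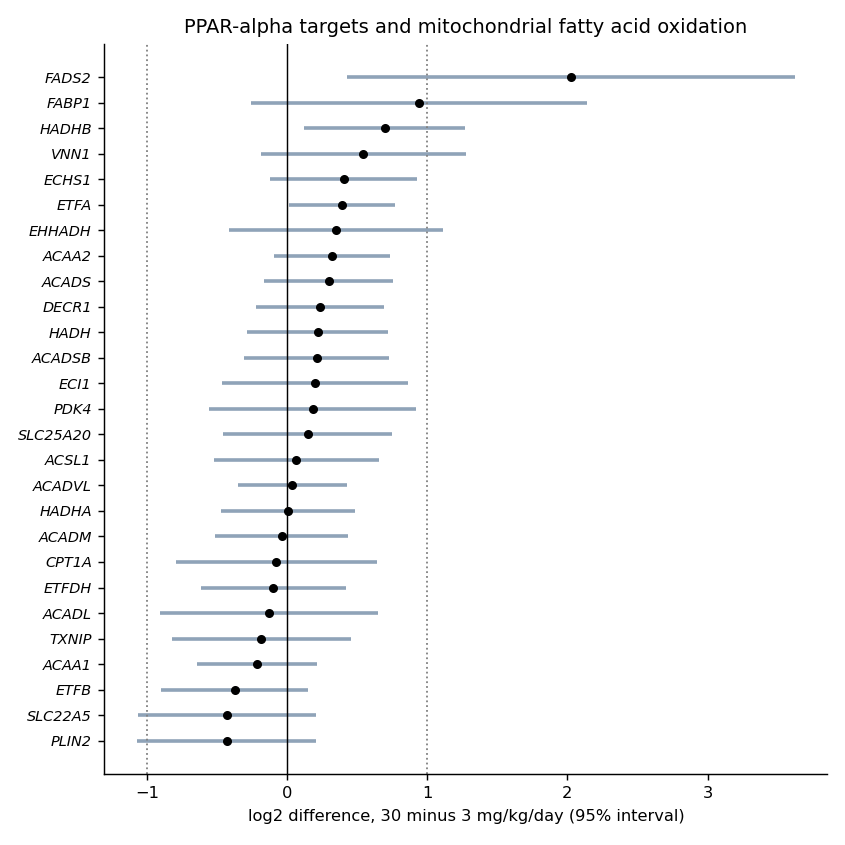
Log2 difference between 30 and 3 mg/kg/day (horizontal axis, points) with 95% intervals (lines) for each measured PPAR-alpha target and mitochondrial fatty acid oxidation gene (vertical axis), with dotted lines at a 2-fold change. Most points lie within 0.5 of 0, and FADS2 at 2.02 has the widest interval.

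In peroxisomes and ketone body metabolism the picture was similar. Of 10 measured genes of peroxisomal oxidation 6 were higher and 4 lower, with a median of 0.18. Catalase (CAT) read 434.7, 496.3, 708.6 and 306.1 at 3 mg/kg/day and 872.9, 1053.6, 1178 and 428.5 at 30 mg/kg/day. Replicates 1 to 3 at the higher dose stood above all 4 at the lower and replicate 4 did not, and the difference was 0.81 ± 0.31, or 1.11 without that animal. HSD17B4, the peroxisomal bifunctional enzyme of the D form, differed by 0.27 ± 0.21. The 9 peroxisome assembly genes had a median of -0.08 and none with an unadjusted p under 0.05. Of 3 measured ketone body genes ACAT1, the mitochondrial thiolase, differed by 0.77 ± 0.29 and BDH1, the hydroxybutyrate dehydrogenase, by -0.07 ± 0.20.

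Fatty acid and triglyceride synthesis had 0 members called. Of 13 measured genes 8 were higher and 5 lower. An unadjusted p under 0.05 was reached by 4, all higher (ELOVL5, SREBF1, FADS2 and SCD), where 2.72% of all genes did in this direction. ELOVL5 and SREBF1 separated the groups, where 1.57% of all genes did so in this direction. SREBF1, the transcription factor that drives lipogenic genes, read 516.2, 421, 419.5 and 355.2 at 3 mg/kg/day and 592.4, 688.9, 656 and 548.4 at 30 mg/kg/day, a difference of 0.53 ± 0.17 (adjusted p = 0.925). SCD, the stearoyl-CoA desaturase, read 55.7, 43, 66.6 and 38.4 against 39.9, 107.8, 296.8 and 274.8, a difference of 1.26 ± 0.50. As for FADS2, replicates 3 and 4 at 30 mg/kg/day were the high ones. The animal of that group that stayed at the level of the lower dose was replicate 1, while for FADS2 it was replicate 2. The median of the list was 0.17, and FADS2 belongs to the PPAR-alpha targets as well.

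Sterol, bile and lipoprotein genes went both ways. Of 15 measured cholesterol genes 6 were higher and 9 lower (median -0.14). LSS, the cyclase that forms lanosterol, differed by -0.71 ± 0.27, and INSIG1, which holds SREBP in the endoplasmic reticulum, by 0.76 ± 0.34. ABCB4, the phospholipid exporter into bile, read 769.4, 918, 545.6 and 738.5 at 3 mg/kg/day and 457.6, 564.9, 328 and 690.9 at 30 mg/kg/day, a difference of -0.55 ± 0.24. Of 16 measured lipoprotein genes 7 were higher and 9 lower (median -0.05). APOB, the protein of very low density lipoprotein, differed by -0.41 ± 0.20 and APOC1 by 0.37 ± 0.23. LCAT, which esterifies cholesterol in plasma, separated the groups with a small difference, -0.24 ± 0.17, and 1.24% of all genes separated them in that direction.

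Drug-metabolising and stress genes were also without a call. Of 21 measured xenobiotic genes 13 were higher and 8 lower (median 0.08). The probe set chosen for CYP3A4, the main drug-oxidising cytochrome, read 1594.5, 1845.5, 2529.7 and 1142.3 at 3 mg/kg/day and 2429.3, 2689.6, 3140.5 and 2478.6 at 30 mg/kg/day. Of the animals at the lower dose only replicate 3 reached into the range of the higher, and the difference was 0.64 ± 0.22. Its other probe sets differed by -0.29 ± 0.31 and -0.06 ± 0.33. Both were dim, with group means from 11.95 to 21.5, so they say little about the bright one. Probe sets for the close CYP3A family may each read several members. CYP1A1, which oxidises aromatic hydrocarbons, read 212.1, 182.6, 351.4 and 247.4 against 19.7, 189.3, 200.2 and 41.2, a difference of -1.40 ± 0.52, while its other probe sets differed by 0.22 and 0.34. NR1I3, the xenobiotic receptor CAR, differed by 0.49 ± 0.27.

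Among 25 measured genes of oxidative stress and metal response 15 were higher and 10 lower (median 0.10). Of these, 3 had an unadjusted p under 0.05, CAT as above and PRDX6 higher (2.72% of all genes) and MT1G lower (2.39%). PRDX6, a peroxiredoxin, was at 5.5 to 8.1 at 3 mg/kg/day and at 23.9, 42.2, 61.2 and 5.2 at 30 mg/kg/day, all low intensities, a difference of 0.98 ± 0.37. MT1G, a metallothionein that binds zinc and copper and has close relatives on the array, read 610.5, 1026.6, 783 and 1837.3 against 906.7, 631.3, 540.9 and 320.9, a difference of -0.78 ± 0.34. The highest of the 8 was replicate 4 at 3 mg/kg/day and the lowest replicate 4 at 30 mg/kg/day, and without the latter the difference was -0.52.

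Genes of proteins that the liver secretes into blood had no call between the doses. Of 20 measured complement genes 7 were higher and 13 lower, with a median of -0.08. C8B, a chain of the membrane attack complex, read 376.1, 504.3, 550 and 531.7 at 3 mg/kg/day and 328.4, 194.1, 294.5 and 483.9 at 30 mg/kg/day, a difference of -0.62 ± 0.25. Its partner C8A differed by -0.29 ± 0.20. CFB, factor B of the alternative pathway, separated the groups at 8426, 6219.9, 6579.6 and 6389.9 against 4723.1, 5621.8, 5736.4 and 5933.4, with a difference of -0.32 ± 0.17. In this direction 1.24% of all genes separated the groups.

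Of 24 measured coagulation genes 15 were higher and 9 lower (median 0.03). F12, coagulation factor XII, differed by -0.50 ± 0.20. The fibrinogen chain FGG read 2453.1, 1313.9, 1942.2 and 811.6 at 3 mg/kg/day and 8718.7, 3436.6, 5147.5 and 802.3 at 30 mg/kg/day. Replicates 1 to 3 at the higher dose were above all animals of the lower, and replicate 4 was the lowest of all 8. The FGG difference was 1.15 ± 0.57, and 1.82 without replicate 4 at 30 mg/kg/day. FGB, another fibrinogen chain, differed by 0.53 ± 0.28 and 0.79 without that animal, and plasminogen (PLG) by 0.35 ± 0.18.

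The 26 measured acute phase and plasma protein genes were evenly split, 13 each way. RBP4, which carries retinol, read 3056.4, 2301.7, 3160.9 and 1638.5 against 3997.6, 5961.3, 5150.7 and 2375.7, a difference of 0.75 ± 0.28. TTR, its partner in plasma, differed by 0.50 ± 0.25, and IGFBP1, which binds insulin-like growth factors, by 0.97 ± 0.44. AGT, angiotensinogen, read 618.4, 605.4, 663.7 and 629.5 against 537.6, 446.5, 414 and 532. The AGT groups were apart and the animals at 3 mg/kg/day nearly equal, and the difference was -0.38 ± 0.16. SERPINA3, an antichymotrypsin, separated the groups too, with a difference of only -0.09 ± 0.14. Downward separation, as in AGT and SERPINA3, was seen in 1.24% of all genes. Adjusted p for the genes of secreted proteins named here ran from 0.925 to 0.958.

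Ribosomal protein genes formed the list with the largest share of members on one side. Of 43 measured genes 8 were higher and 35 lower at 30 mg/kg/day, against 48% lower over all probe sets, and the median was -0.16, or -0.11 without replicate 4 at 30 mg/kg/day. The differences were small, and for 42 of the 43 genes the interval lay within 2-fold. RPS3 read 5310.6, 4061.2, 4317.6 and 4594.6 at 3 mg/kg/day and 3299.3, 4066.2, 3080.6 and 3626.5 at 30 mg/kg/day, a difference of -0.38 ± 0.16. RPL10A, RPL22 and RPS21 also had an unadjusted p under 0.05, with differences of -0.40, -0.44 and -0.38, where 2.39% of all genes did in this direction. RPS21, RPLP1 and RPL7, 3 of the 43, separated the groups downward, where 1.24% of all genes did, and none was called. These genes are expressed together and share the same 8 arrays, so they are not 43 separate observations. Other probe sets of RPS21, RPL22 and RPLP1 differed the other way, by 0.42, 0.34 and 0.27.

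Other lists of cell machinery leaned less. Of 43 measured oxidative phosphorylation genes 29 were higher and 14 lower (median 0.13). ATP5MC1 and ATP5MC2, which encode the same subunit of the ATP synthase ring, went opposite ways, by -0.47 ± 0.17 and 1.13 ± 0.47. ATP5MC2 was dim at 3 mg/kg/day, at 17.3 to 23.3, and read 26.4, 46.8, 57.6 and 194.2 at 30 mg/kg/day, highest in replicate 4. Its other probe set, also dim at 2.7 to 7.6 and 28 to 57, differed by 1.44 ± 0.30 (limma adjusted p = 0.642). Without replicate 4 at 30 mg/kg/day that difference was 1.38. Its groups did not overlap, where 1.61% of all probe sets separated in this direction. Of 25 genes of chaperones and endoplasmic reticulum stress 7 were higher and 18 lower (median -0.10), with 0 at an unadjusted p under 0.05. DDIT3, a stress-induced transcription factor, differed by -0.67 ± 0.40 and CANX, calnexin, by -0.41 ± 0.26. Another probe set of DDIT3 differed by -0.09 ± 0.36. The 26 proteasome genes had a median of -0.01, and for 24 of these the interval lay within 2-fold.

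**Figure D5:**
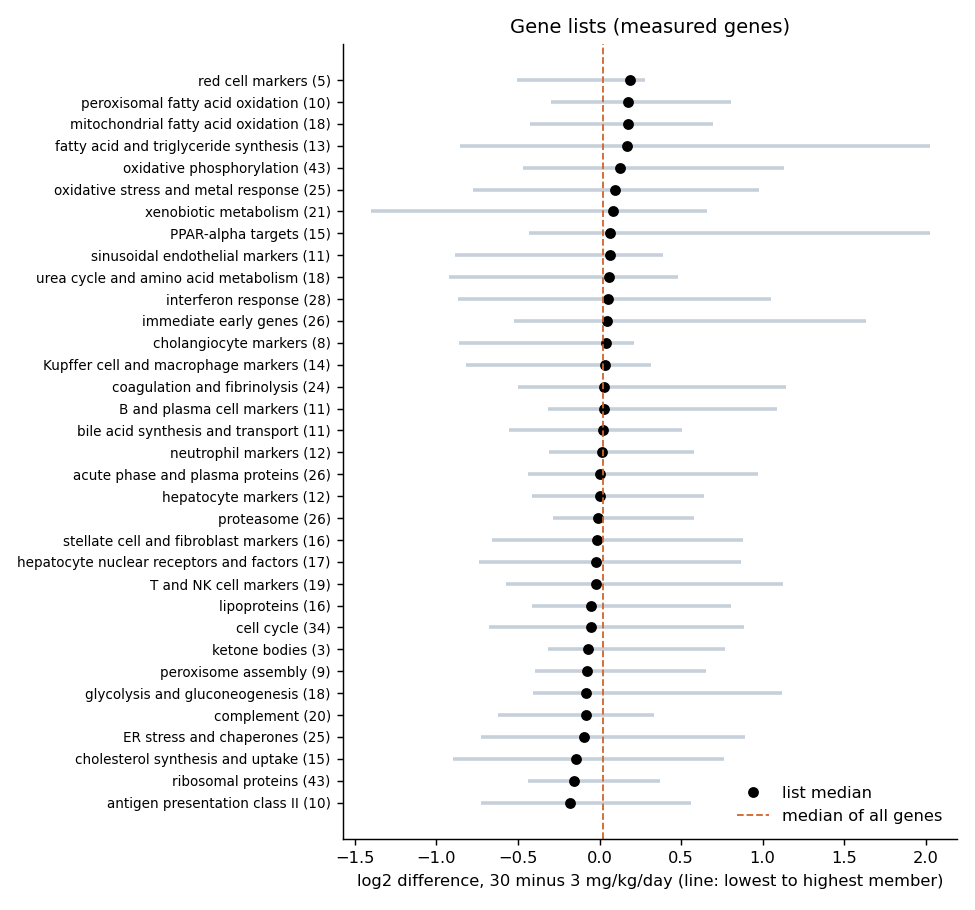
Median log2 difference between 30 and 3 mg/kg/day (horizontal axis, points) and the range from the lowest to the highest member (lines) for each gene list (vertical axis, number of measured genes in brackets), with the median of all genes as a dashed line. List medians lie between -0.18 and 0.19, with class II antigen presentation lowest at -0.18 and red cell markers highest at 0.19.

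Early response, immune and growth genes held a few larger single differences. FOSB, a subunit of the AP-1 transcription factor, read 70, 328.7, 72.4 and 126.8 at 3 mg/kg/day and 254.4, 363.1, 415.9 and 771.4 at 30 mg/kg/day. The groups overlapped through replicate 2 at the lower dose, and the difference was 1.64 ± 0.43 (adjusted p = 0.925). The 26 immediate early genes were split 13 each way, with JUNB at 0.74 ± 0.52 and MYC at -0.40 ± 0.20. Of 28 interferon genes 16 were higher, IFI27 with a difference of 1.05 ± 0.37. HLA-DQB1, a class II antigen-presenting chain, read 154.3, 181.7, 160.9 and 188.7 against 94.3, 109.5, 80.5 and 152.9, a difference of -0.61 ± 0.26. Its other probe sets differed by -1.13 ± 0.51, -0.11 ± 0.18 and 0.23 ± 0.16. HLA-DPB1 differed by -0.73 ± 0.50. Of 34 cell cycle genes 12 were higher and 22 lower (median -0.05). MKI67, a marker of dividing cells, separated the groups at 30 to 36.3 and 42.1 to 65.3, both dim, where 1.57% of all genes separated upward.

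Of 17 measured nuclear receptors and liver transcription factors 8 were higher and 9 lower (median -0.02). FOXA2, a forkhead factor of liver, differed by 0.56 ± 0.22, and PPARG, the relative of the drug's receptor that drives fat storage, by 0.87 ± 0.39 at intensities of 14.9 to 81.4. CEBPA, a factor of mature hepatocytes, separated the groups with a difference of -0.24 ± 0.18. In amino acid metabolism HAL, histidine ammonia-lyase, read 126.8, 174.9, 135.4 and 182.2 at 3 mg/kg/day and 30.4, 79.4, 113.9 and 93.4 at 30 mg/kg/day, a difference of -0.93 ± 0.35. ARG1, the arginase of the urea cycle, separated the groups the other way at 94.1, 97.4, 87.2 and 105.3 against 165.5, 140, 154.7 and 107.5, with a difference of 0.48 ± 0.26. CPS1, the entry enzyme of that cycle, differed by 0.41 ± 0.24. Among 18 genes of sugar metabolism SLC2A2, the glucose transporter of hepatocytes, differed by 1.12 ± 0.47. None of these was called, and over all genes 1.24% separated the groups downward and 1.57% upward.

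Markers of other liver cell types were compared as well, since in bulk tissue fewer cells of a type and less RNA per cell cannot be told apart. The summed intensity of 14 Kupffer cell and macrophage markers ran from 4440 to 6374 at 3 and from 4314 to 4935 at 30 mg/kg/day, and the list was split 7 higher to 7 lower (median 0.03). MARCO and CD14 differed by -0.82 ± 0.44 and -0.31 ± 0.19, CSF1R and VSIG4 by 0.32 ± 0.24 and 0.30 ± 0.27. That of 16 stellate cell and fibroblast markers, 7 higher and 9 lower (median -0.02), ran from 5082 to 8283 and from 3847 to 6016. COL1A1 differed by 0.74 ± 0.30 and BGN by -0.48 ± 0.25, and another probe set of COL1A1 by 0.01 ± 0.34. The sum of 11 sinusoidal endothelial markers, 6 higher and 5 lower (median 0.06), ran from 2204 to 3160 and from 2406 to 3028. CDH5 and TEK differed by -0.89 ± 0.43 and -0.43 ± 0.34, and the 2 probe sets of CD34 by 0.23 ± 0.18 and -0.36 ± 0.32. For 19 T and NK cell markers, 9 higher and 10 lower (median -0.02), the sums were 1143 to 1530 and 1272 to 1806, with CD8A at 1.12 ± 0.40 and GNLY at -0.58 ± 0.47. For 11 B and plasma cell markers, 6 higher and 5 lower (median 0.03), they were 719 to 1243 and 984 to 1442. POU2AF1 differed by 0.75 ± 0.34 and JCHAIN by -0.32 ± 0.25, and IGHM by 1.09 ± 0.50, with 0.17, -0.35 and 0.25 in its other probe sets. The sums of 12 neutrophil, 8 cholangiocyte and 5 red cell markers ran from 586 to 827 and from 536 to 1049, from 415 to 667 and from 375 to 542, and from 1513 to 1991 and from 1748 to 2576. The B cell and neutrophil sums were highest in replicate 4 at 30 mg/kg/day (1442 and 1049). Of these lists 2 T and NK cell, 3 B cell, 2 neutrophil and 1 stellate cell members stayed under an intensity of 40 in all 8 animals. All these ranges overlapped between the doses, and their part in the differences above was not tested.

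The probe sets that changed at the top dose were then read at this lower step. In a fit of all 23 arrays 126 probe sets (1%) were called between 400 mg/kg/day and vehicle at 15 days, 72 of them higher and 54 lower with the drug. This comparison has no array in common with the 30 against 3 step, although that fit took its spread from all arrays. Of the 72 that rose, 53 (73.6%) were higher at 30 than at 3 mg/kg/day, against 52% of all probe sets, with a median of 0.16 against 0.02. Of the same 72, 11 (15.3%) had an unadjusted p under 0.05 and were higher, against 2.68%, and 4 (5.56%) separated the groups upward, against 1.61%. Of the 54 that fell, 37 were lower at 30 mg/kg/day (68.5%, against 48%), with a median of -0.09, 5 had an unadjusted p under 0.05 and were lower (9.26% against 2.37%), and 3 separated the groups downward, against 1.33%. These sets came from the same study and their members move together, so no test is given.

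When the sets were chosen from only the 15 arrays at neither dose, a choice made after seeing the data, 84 rose and 59 of these were higher at 30 mg/kg/day, and 51 fell and 35 of these were lower. The sizes at the low step were small beside those at the top dose. For the 72 that rose, the median log2 difference at 400 mg/kg/day was 1.20, and for 49 of these the interval at the 30 against 3 step lay within 2-fold. For the 54 that fell it was -1.21, and 46 lay within 2-fold. Against vehicle at 150 mg/kg/day 34 probe sets (0.271%) were called, 27 of them higher, of which 17 were higher at 30 than at 3 mg/kg/day, and 7 lower, of which 6 were lower.

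Among single genes that rose at the top dose, NQO1, a quinone reductase, averaged 216 in vehicle animals, 276 at 3, 318 at 30, 750 at 150 and 1257 at 400 mg/kg/day, and differed by 0.23 ± 0.25 between 30 and 3. The aldo-keto reductase AKR1B10 averaged 33.4, 67, 37.5, 176 and 614 in the same order, and differed by -0.71 ± 0.40 at this step. ALDH1A1, which makes retinoic acid, read 1857, 1706.7, 2795 and 1344.1 at 3 mg/kg/day and 2904.3, 3684.5, 4125 and 1985.2 at 30 mg/kg/day, a difference of 0.71 ± 0.26, against 1.96 ± 0.25 for 400 mg/kg/day against vehicle. CLDN10, a tight junction protein, differed by 0.45 ± 0.48.

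Among genes that fell at the top dose, CYP2E1, the ethanol-oxidising cytochrome, fell by 3.56 ± 0.48 at 400 mg/kg/day against vehicle (adjusted p = 2.04e-04), and at the 30 against 3 step it differed by 0.13 ± 0.23 (interval -0.37 to 0.64). HGFAC, which activates hepatocyte growth factor, fell by 2.12 ± 0.21 at the top dose and differed by -0.17 ± 0.19 here. The secreted proteins PZP, FGL1 and SPP2 differed by -0.31 ± 0.32, -0.30 ± 0.32 and -0.08 ± 0.27. IGFALS, which stabilises circulating growth factor complexes, differed by 0.18 ± 0.18, the glucocorticoid-induced TSC22D3 by -0.19 ± 0.17 and the protease inhibitor TIMP1 by -0.08 ± 0.50. For HGFAC, SPP2 and this probe set of CYP2E1 the interval at this step lay within 2-fold, while the other probe set of CYP2E1 differed by 0.44 (interval -0.26 to 1.13) and TIMP1 averaged 201 in vehicle animals and 73.9 and 63.4 at 3 and 30 mg/kg/day.

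Whether the step from 3 to 30 mg/kg/day differed from the step from 150 to 400 mg/kg/day was tested directly, on 4 groups with no array in common between the steps. Of 12558 probe sets 1 was called (0.00796%), and 873 (6.95%) had an unadjusted p under 0.05. It was REST, a repressor of neuronal genes, with a difference between steps of 1.64 ± 0.26 (adjusted p = 0.0283). REST averaged 6.53 at 3, 9.18 at 30, 50.9 at 150 and 8.07 at 400 mg/kg/day, so the call came from the animals at 150 mg/kg/day at an intensity near the floor, and between 30 and 3 it differed by 0.16 ± 0.19. The call was lost without any one of the 4 animals at 3 mg/kg/day, replicate 3 at 30, replicates 1, 2 and 4 at 150 or replicates 1 and 4 at 400 mg/kg/day, with adjusted p from 0.0514 to 0.141.

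Other genes with the smallest p for this difference had not passed the test. HSPB6, a small heat shock protein, read 4.3, 5.1, 7 and 19.2 at 3 mg/kg/day and 142.1, 90, 26 and 28.5 at 30 mg/kg/day, and the steps differed by 2.76 ± 0.59 (adjusted p = 0.170). CPB1, a carboxypeptidase, read 14.9, 9.4, 30.3 and 26.1 against 60, 98.7, 122.9 and 74, and the steps differed by 2.68 ± 0.58 (adjusted p = 0.170). Both were higher at 30 mg/kg/day in every animal and dim at 3. For MT1G the steps differed by 3.10 ± 0.65, for AKR1B10 by -2.40 ± 0.52 and for ATP5F1D by -1.36 ± 0.30 (adjusted p = 0.170 each). MT1G averaged 5037 at 150 and 339 at 400 mg/kg/day. For GRINA the steps differed by 1.17 ± 0.27, for EXOSC2, a subunit of the RNA exosome, by -2.43 ± 0.46 and for GALT, an enzyme of galactose breakdown, by -1.30 ± 0.29 (adjusted p from 0.0892 to 0.243). CYP2E1 and IGFALS had step differences of 2.69 ± 0.63 and 1.72 ± 0.42 (adjusted p = 0.264 and 0.322), and TXN, thioredoxin, of -1.05 ± 0.25 (adjusted p = 0.265).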

How the data were processed

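RNA from 23 livers, 1 array per animal, had been hybridised to a human array. The submitters' processing notes name MAS5 as the tool behind the deposited values, which are linear intensity values, 1 for each probe set and array. The version, settings, detection calls and any batch are not given in the sources used here. Groups came from the labels, and each array from a different animal.

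Of 12625 probe sets 67 controls were left out, and no low value was filtered. The deposited intensities were converted to log2 after adding 16, which damps differences near the floor. A fit of the 8 arrays with an intensity trend used limma 3.58.1 in R 4.3.3 (6 residual and 6.79 prior degrees of freedom), two-sided, with Benjamini-Hochberg adjustment. The number of arrays limits the precision. Contrasts with other doses came from a means model of all 7 groups, 23 arrays. Scripts were tested on simulated data.

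By the platform annotation 10943 probe sets named 1 gene, 545 several and 1070 none. A gene was represented by the probe set with the highest mean that named it alone, which gave 8226 genes. Members and gene lists were chosen with earlier results of these data known. Named were, where measured, the 12 genes each way with the smallest p among those with no overlap and a group mean of at least 100, members of the PPAR-alpha and mitochondrial lists, up to 4 members with the smallest p of other lists, ACTB, GAPDH and PPARA, up to 8 genes each way called at 400 mg/kg/day and 5 each way for the difference between steps. Genes outside it, named after their values were seen, were KLF11, MKI67, CEBPA, SERPINA3, RPLP1 and RPL7. KLF11 was given by a probe set picked for its values and not by the one with the highest mean. Some genes are not reported here. Alternatives covered the pseudocount, filters, scaling, variance options, array weights, other arrays in the fit, a replicate block, other probe sets and leaving out each animal. Replicate numbers are shared labels and did not pair animals, since deviations of same-numbered animals correlated by -0.03 to 0.06.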

Additional observations from a re-analysis of the deposited data

Results flagged for a closer look

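Single animals of named genes that lay far from the other 3 of their dose are listed here, where the gap to the nearest animal passed Dixon's 95% limit. Of 284 groups of 4 animals checked, for 142 genes, 10 passed, and chance alone passes about 1 in 20, or 14.2. At 3 mg/kg/day MRPL49 was 219.7 in replicate 1 against 137.2 to 139 in the other animals. ACADSB was 3205.2 in replicate 4 against 5780.8 to 6292.6. ECI1 was 99.5 in replicate 2 against 227 to 248.8, and F12 was 3044.1 in replicate 3 against 3726.9 to 3882.8. RPLP1 was 5624.7 in replicate 4 against 4672.7 to 4755.4. At 30 mg/kg/day ZNF593 was 86.7 in replicate 2 against 45.3 to 50.8, and CEBPA 1073 in replicate 2 against 1665.2 to 1738.4. EHHADH was 75.3 in replicate 4 against 43.4 to 47. RPS21 was 2964.1 in replicate 1 against 3904.8 to 3980.7, and DDIT3 45.1 in replicate 1 against 94.4 to 101.9. Of the 10, 1 fell on replicate 4 at 30 mg/kg/day, the array with the lowest correlation to its group.

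REST differed between the step from 3 to 30 mg/kg/day and the step from 150 to 400 mg/kg/day by 1.64 on the log2 scale, by limma's test of that difference.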

How the results depend on the processing

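The count of 0 calls became 1 under a filter at the 40th percentile of mean intensity, a filter on a group mean of at least 100, median scaling and a fit of all 23 arrays. The call was NFIX in the first 3 (adjusted p = 0.0387, 0.0349 and 0.0439) and KLF11 in the last, and leaving out 1 animal gave 0 to 1. Probe sets with an unadjusted p under 0.05 numbered 405 and 320 under the 2 filters, which tested fewer probe sets, and 565 to 733 without single animals. In the fit of all 23 arrays there were 899, against 635 in the fit of the 8 arrays. Those that separated the groups numbered 199 under the second filter and 667 to 816 without single animals, where 3 against 4 arrays separate more easily. With the replicate number as a block 0 were called and 686 had an unadjusted p under 0.05 (smallest adjusted p = 0.315). The block changed no other call of the 8-array fit. For the difference between steps the 1 call became 0 under the filter, quantile normalization, 16 arrays, a pseudocount of 1 and the replicate block over 16 arrays (smallest adjusted p = 0.277), and single animals left out gave 0 to 3. The cause was not tested. Of the top-dose probe sets that rose, 44 to 54 were higher, and of those that fell, 30 to 39 were lower, without single animals.

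Among named genes, 56 alternative values had the opposite sign, 2796 kept the sign without a call and 5 kept it with a call (4 of NFIX and 1 of KLF11, above and without replicate 1 at 3 mg/kg/day). By another probe set of the gene these were NENF (-0.34), GNAT1 (-0.13), ELOVL5 (-0.023), APOB (0.037), CYP3A4 (-0.29 and -0.058), CYP1A1 (0.22 and 0.34), JUNB (-0.17), HLA-DQB1 (0.23), RPS21 (0.42), RPL22 (0.34), RPLP1 (0.27), IGHM (-0.35), CD34 (-0.36), TSC22D3 (0.036), GRINA (-0.45) and EXOSC2 (0.14). Median scaling gave ACADVL -0.0076 and HADHA -0.039, quantile normalization ACADM 0.061 and GAPDH 0.039, and array weights HADHA -0.0047 and GAPDH 0.020. Leaving out 1 animal gave ranges across 0 for PDK4 (-0.052 to 0.50), ACSL1 (-0.19 to 0.32), CPT1A (-0.38 to 0.16), ACADVL (-0.070 to 0.16), ACADM (-0.22 to 0.079), HADHA (-0.18 to 0.12), ACADSB (-0.010 to 0.34), ECI1 (-0.091 to 0.32), ETFDH (-0.32 to 0.019), ACADL (-0.28 to 0.041), BDH1 (-0.21 to 0.064), FGL1 (-0.48 to 0.055), SPP2 (-0.28 to 0.080), TIMP1 (-0.39 to 0.25), ACTB (-0.35 to 0.0077) and GAPDH (-0.17 to 0.042). Of the list medians, 700 stayed within the spread between animals and 14 did not. Signal near the floor limits dim probe sets, where the sign rests on few units of intensity.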
